A study of Mus musculus with 4 samples.

Results

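Interferon-responding T cells in the blood of MC-38 tumor-bearing mice were examined by droplet-based single-cell RNA sequencing. MC-38 is a transplantable mouse colon carcinoma line, and all 4 groups of female C57BL/6 mice carried it subcutaneously. Members were selected on raw UMIs: a cell with 200 to 2900 genes detected was taken as a T cell when it had at least 1 UMI of Cd3d, Cd3e or Cd3g, and as interferon-responding when at least 2 of the 7 genes Ifit1, Ifit3, Isg15, Rsad2, Usp18, Irf7 and Oasl2 were detected. This gave 459 members among 4835 T cells, 5276 kept cells and 5434 deposited cells. The comparison cells were the 3391 T cells of the same libraries with none of the 7 genes detected. Another 985 T cells had exactly 1 of the genes and belonged to neither set.

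Blood was drawn on day 18 after tumor challenge from mice of 6 to 8 weeks of age at the start, and each group is 1 library. The untreated mouse received no immunotherapy. The anti-PD-L1 mouse received antibodies that block PD-L1 on days 10, 13 and 17. The anti-OX40 library, whose labels say only OX40, came from a mouse that received an agonistic OX40 antibody on day 7 (given with the TLR9 ligand CpG in the study's regimen), and the PDOX mouse received both treatments. The series' design text gives 4 mice for the 4 libraries, so treatment, animal and library cannot be told apart, and no test between treatments was made. T cells had been enriched from blood with magnetic beads, and 89.0% to 95.2% of the kept cells in a library had a Cd3 UMI. The libraries held 2392650 to 4969885 UMIs. No barcode of a member was found in another library.

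Interferons are cytokines that cells release on sensing nucleic acids or on T cell activation. Type I interferons act through the receptor IFNAR and a transcription factor complex that includes IRF9 and binds interferon-stimulated response elements, while interferon gamma acts through a receptor of its own. The induced genes encode antiviral effectors, nucleic acid sensors, ubiquitin-like modifiers, GTPases and antigen presentation proteins, and T cells respond to both kinds of interferon. The members are called interferon-responding for the genes that chose them. Ifit1, Ifit3, Isg15 and Usp18, the genes named as their markers, are among those 7 and so cannot check the name, which is why genes outside the 7 were examined.

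Interferon-responding cells made up 8.46% of T cells in the untreated library (59 of 697; exact Clopper-Pearson 95% interval 6.51% to 10.8%). In the anti-PD-L1 library the share was 18.2% (240 of 1317; 16.2% to 20.4%). In the anti-OX40 library it was 4.25% (63 of 1481; 3.28% to 5.41%), and in the PDOX library 7.24% (97 of 1340; 5.91% to 8.76%). The interval of the anti-PD-L1 library lay above all others and that of the anti-OX40 library below all others, whereas those of the untreated and PDOX libraries overlapped. The intervals cover counting error only, and with 1 library per group these are differences between libraries.

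The number of genes detected depends on depth. Members had more UMIs than the comparison cells of their library, with medians of 1838, 2075, 1955 and 2014 against 1497, 1568.5, 1605 and 1505 in the untreated, anti-PD-L1, anti-OX40 and PDOX libraries. When each cell was thinned to 750 UMIs, which left out 107, 88, 179 and 189 shallower cells, the shares were 3.50%, 7.97%, 1.11% and 2.47% in the same order. The order of the libraries was the same at equal depth, and the anti-PD-L1 interval of 6.48% to 9.67% lay above all others. The anti-OX40 interval of 0.607% to 1.85% then overlapped that of PDOX (1.65% to 3.56%). With at least 3 of the 7 genes required, the shares were 2.73%, 8.88%, 0.945% and 2.54%. At 4 or more of the genes, 9, 60, 4 and 21 cells remained.

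**Figure D1:**
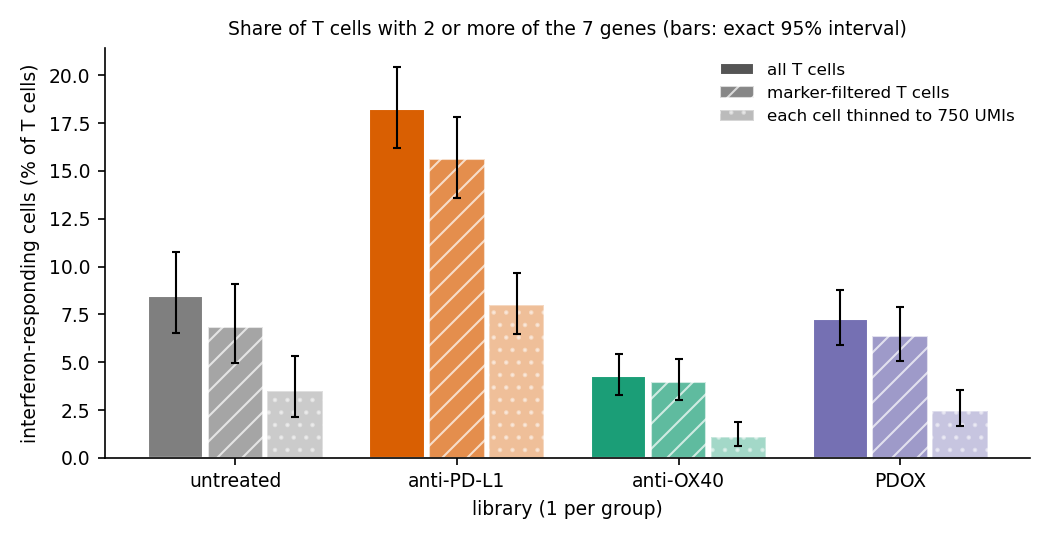
Share of T cells that were interferon-responding (y axis, percent) in the library of each group (x axis), for all T cells, for T cells with few transcripts of other cell types, and after thinning each cell to 750 UMIs. Error bars are exact 95% intervals for counting error; the anti-PD-L1 library was highest and the anti-OX40 library lowest in each version, at 18.2% and 4.25% for all T cells.

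Irf7, a transcription factor that amplifies interferon production, and Isg15, a ubiquitin-like protein, were the genes that most often brought a cell over the limit. Irf7 was detected in 316 of the 459 members and Isg15 in 286. Ifit1, a sensor of foreign RNA ends, was found in 198 members, its relative Ifit3 in 153, Oasl2 of the oligoadenylate synthetase family in 138, and Usp18, the protease that removes ISG15, in 127. Rsad2, the antiviral enzyme viperin, was the least frequent with 58. Of the members, 275 had exactly 2 of the genes, and the most frequent pair was Isg15 with Irf7, in 64 cells. At the other side of the limit, the 985 T cells with 1 gene most often had Irf7 (375 cells) or Isg15 (252 cells).

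Isg15 stood at 6.13, 7.18, 4.81 and 12.3 UMIs per 10000 in the members of the untreated, anti-PD-L1, anti-OX40 and PDOX libraries. It was highest in PDOX members, where the share of members was not. Among members with exactly 2 of the genes, Isg15 stood at 2.89, 4.14, 2.83 and 3.91 in the same order, highest in anti-PD-L1. These sums are without the marker filter. Ifit1 stood at 2.97, 3.01, 1.87 and 2.72 UMIs per 10000, and Usp18 at 1.78, 1.47, 1.37 and 1.32. These levels describe cells chosen for the same genes and were not tested. Of the 7 genes, Rsad2 had the most UMIs in deposited droplets with fewer than 200 genes. Of 135 such droplets, 134 of which were mostly hemoglobin, 38 held 64 Rsad2 UMIs, against 17 Isg15 UMIs in 10 droplets. The source of these UMIs was not tested. Without Rsad2 in the gate the shares of members were 7.89%, 17.8%, 4.25% and 7.09%.

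Not all members looked like single T cells. In 16 members, all of effector state, at least 4 UMIs of epithelial genes such as Krt13, Psca and Csta1 were found, at a median of 9627.5 UMIs per cell, and no comparison cell had as many. At least 4 UMIs of 12 monocyte genes were present in 93 of 459 members and in 157 of 3391 comparison cells. In summed members the 12 monocyte genes reached 181, 73.0, 11.4 and 60.9 UMIs per 10000 in the untreated, anti-PD-L1, anti-OX40 and PDOX libraries, against 25.6, 15.9, 8.71 and 13.5 in comparison cells. No doublet caller was run, and the part of two-cell droplets or of free RNA in these values was not tested. Results are therefore given beside those for marker-filtered T cells, which had fewer than 4 UMIs of each list of B cell, monocyte, NK cell, neutrophil, platelet, erythroid and epithelial genes. The epithelial list was added to the planned lists, and this filter was chosen after these values were seen. It left 359 of the 459 members and 4436 of the 4835 T cells, with monocyte genes at 6.97, 6.16, 4.35 and 5.30 UMIs per 10000 in members and 7.02, 6.51, 4.87 and 5.34 in comparison cells. These low levels follow from the filter, which used the same genes, and are no separate check of it.

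Among marker-filtered T cells the shares of members were 6.83%, 15.6%, 3.99% and 6.36% in the untreated, anti-PD-L1, anti-OX40 and PDOX libraries. The untreated and PDOX shares again had overlapping exact intervals (4.98% to 9.08% and 5.07% to 7.86%). The anti-PD-L1 interval of 13.6% to 17.8% lay above the other libraries, while that of anti-OX40 (3.03% to 5.15%) overlapped both untreated and PDOX. Among T cells without any UMI of the other-cell lists, the shares were 8.57% (9 of 105), 12.4% (29 of 233), 2.65% (13 of 491) and 5.46% (20 of 366), and the untreated and anti-PD-L1 intervals overlapped (3.99% to 15.6% and 8.50% to 17.4%).

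Other interferon-stimulated genes stood higher in cells with 4 or more of the 7 genes than in cells with none. The 5 lists of such genes outside the 7 (antiviral effectors and sensors, ISG15 conjugation, the HIN-200 family, the Schlafen family, and interferon-inducible GTPases with other interferon gamma targets) were summed over marker-filtered T cells. With none of the 7 genes detected, they stood at 94.6, 117, 90.3 and 102 UMIs per 10000 in the untreated, anti-PD-L1, anti-OX40 and PDOX libraries. With exactly 1 gene they stood at 109, 130, 102 and 111, and with 2 genes at 163, 158, 119 and 134. With 3 genes they stood at 158, 186, 237 and 251, so the untreated value did not rise at that step, and over all T cells the value at 3 genes was below that at 2 in the untreated (103 and 139.8), anti-PD-L1 (137 and 142) and anti-OX40 (108 and 122) libraries. With 4 or more genes they reached 255, 251, 268 and 299. Cells with 4 or more were above cells with none in all 4 libraries, and the values at 4 or more rest on 6, 42, 4 and 14 cells. Comparison cells of the anti-PD-L1 library had the highest level (exact Poisson 95% interval 115 to 119, against 92.3 to 96.9 in the untreated library), so the library with most members was also highest among T cells with none of the 7 genes. These intervals cover counting error only and leave out spread between cells and between mice.

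**Figure D2:**
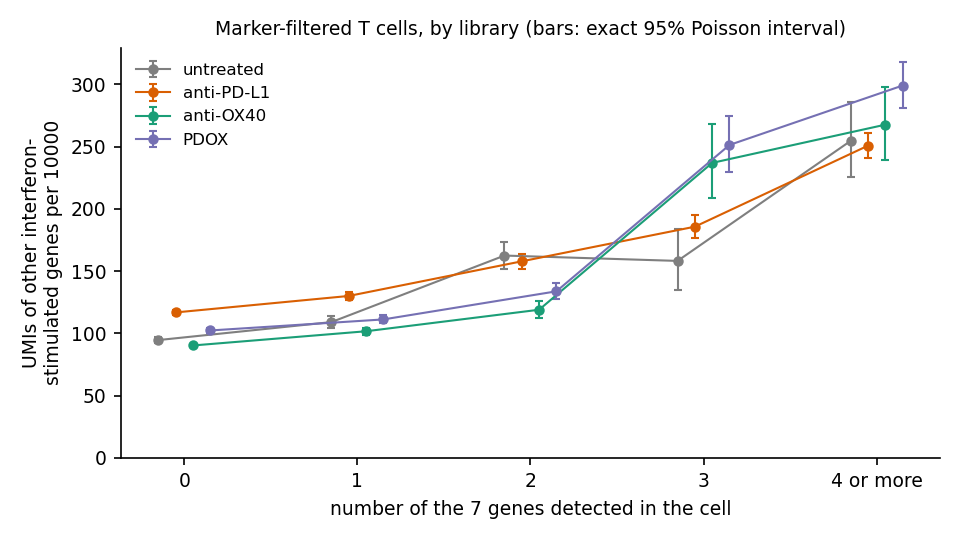
Summed level of interferon-stimulated genes outside the 7 (y axis, UMIs per 10000) against the number of the 7 genes detected in a cell (x axis) in marker-filtered T cells, 1 line per library. Error bars are exact 95% Poisson intervals for counting error, without spread between cells or mice. Every library is higher at 4 or more genes (251 to 299) than at none (90.3 to 117).

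Members and comparison cells were then compared across all genes on counts summed per library, with the library as a block and the 7 selecting genes and the Cd3 genes left out. In naive-state T cells (more UMIs of naive than of effector genes), which held 257 members and 2050 comparison cells, 51 of 5183 genes were higher in members and 3 were lower (edgeR quasi-likelihood test, Benjamini-Hochberg adjusted p under 0.05). These are 0.984% and 0.0579% of the genes tested. Of the interferon-stimulated genes in the 5 lists, 61 passed the filter on low counts; 35 rose, none fell and 26 were not called, with a median log2 fold change of 0.96 against -0.015 over all genes tested. In marker-filtered T cells, 76 of 5992 genes were higher (1.27%) and 4 lower (0.0668%), and 41 of 67 interferon-stimulated genes rose, with a median of 0.97. Of the genes called higher, 46 were called in both. The sets share cells: 32, 138, 30 and 33 naive-state members of the untreated, anti-PD-L1, anti-OX40 and PDOX libraries were also marker-filtered. Calls in both are therefore no separate check. The 12 monocyte genes stood at 9.22, 11.8, 5.96 and 6.99 UMIs per 10000 in naive-state members of the untreated, anti-PD-L1, anti-OX40 and PDOX libraries and at 7.92, 7.66, 5.63 and 6.56 in comparison cells, and none of the 4 tested was called. The anti-PD-L1 library held 157 of the 257 naive-state members, and without it 5 of 4265 genes were called in naive-state cells and 30 of 5457 in marker-filtered cells. Of the 54 genes called in naive-state cells, 50 could still be tested without that library, and 5 of these were still called. All 50 kept their direction, but the other libraries also helped choose the genes, so this is no separate check.

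Over all 459 members, 489 of 6944 genes were higher (7.04%) and 83 lower (1.2%). Of the interferon-stimulated genes, 54 of 73 rose, with a median log2 fold change of 0.96. The largest differences were instead those of epithelial genes, all 8 tested of which rose, and of monocyte genes, all 8 tested of which rose, with medians of 7.67 and 2.39. The epithelial list was not among the planned lists and holds genes with large increases in these data, so its rise is a description and not a test. Csta1, a cysteine protease inhibitor of squamous epithelium, had a log2 fold change of 10.28 ± 0.27 (SE; edgeR adjusted p = 3.21e-14), and BC100530, chosen as the largest increase outside the lists, had 9.76 ± 0.24 (adjusted p = 2.51e-14). Of the genes called higher over all members, 424 were not called higher in marker-filtered cells, and none of the 4 monocyte genes tested there was called. The filter used the monocyte genes, so their result there is no separate check. It also left fewer members, and the part of this in the lost calls was not tested.

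The called genes named from the lists, apart from Ifi27l2a, were chosen for 1 direction in every library, so that direction is no separate result. Rtp4, an interferon-induced chaperone of G protein-coupled receptors with antiviral activity, showed the largest difference in naive-state cells. It stood at 3.93, 2.65, 1.53 and 1.43 UMIs per 10000 in naive-state members of the untreated, anti-PD-L1, anti-OX40 and PDOX libraries and at 0.435, 0.675, 0.266 and 0.397 in their comparison cells. The summed level of members in each library was above that of comparison cells in every library, and the untreated sum was highest. The sums of naive-state members held 66181, 306036, 58703 and 55823 UMIs in the same order. Low levels in the untreated, anti-OX40 and PDOX members therefore rest on few UMIs, and the order of libraries was not tested. The log2 fold change was 2.29 ± 0.22 (SE, 4 libraries; edgeR adjusted p = 2.18e-10) in naive-state cells, 2.37 ± 0.18 (5.71e-11) in marker-filtered cells and 2.61 ± 0.18 (1.09e-08) over all members.

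Ifi27l2a, a small interferon-induced membrane protein gene named here after its values were seen, had the smallest p in naive-state cells and was the most abundant of the called antiviral genes. It stood at 23.9, 37.8, 19.6 and 24.4 UMIs per 10000 in naive-state members of the untreated, anti-PD-L1, anti-OX40 and PDOX libraries against 9.79, 19.9, 8.74 and 9.79 in comparison cells. Members were higher in each library, but the anti-PD-L1 comparison cells were above anti-OX40 members. The log2 fold change was 1.08 ± 0.07 (SE; edgeR adjusted p = 1.36e-17).

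Isg20, an exonuclease that degrades viral RNA, stood at 1.21, 1.24, 0.511 and 0.537 UMIs per 10000 in naive-state members of the untreated, anti-PD-L1, anti-OX40 and PDOX libraries and at 0.184, 0.337, 0.181 and 0.377 in comparison cells. The ranges did not overlap, but the anti-OX40 and PDOX member levels rest on few UMIs. Its log2 fold change was 1.78 ± 0.31 (SE; edgeR adjusted p = 0.000183). Phf11c, a PHD finger gene, stood at 0.907, 0.752, 0.511 and 1.43 UMIs per 10000 in naive-state members against 0.1, 0.279, 0.247 and 0.278, with a log2 fold change of 1.77 ± 0.35 (adjusted p = 0.00176). Eif2ak2, the double-stranded RNA sensor PKR, rested on 28 UMIs in members and rose by a log2 fold change of 2.08 ± 0.46 (adjusted p = 0.00569). Bst2, the tetherin that holds budding virus at the cell surface, stood at 5.89, 6.37, 3.58 and 3.76 in members against 2.19, 3.25, 2.01 and 2.54 (log2 fold change 0.97 ± 0.13, adjusted p = 1.17e-06). In all, 18 of the 30 antiviral genes tested rose in naive-state members and 23 of 34 in marker-filtered members.

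Of the genes for ISG15 conjugation and related ligases, 2 of 8 tested rose in naive-state members. Herc6, the main ISG15 ligase of the mouse, stood at 1.66, 1.14, 0.852 and 0.717 UMIs per 10000 in naive-state members of the untreated, anti-PD-L1, anti-OX40 and PDOX libraries and at 0.435, 0.431, 0.381 and 0.436 in comparison cells. The comparison cells were alike, while the anti-OX40 and PDOX member levels rest on few UMIs, so no order among members is read from them. Herc6 rose by a log2 fold change of 1.39 ± 0.26 (SE; edgeR adjusted p = 0.000968). Dtx3l, a ubiquitin ligase that partners with PARP9, rose as well (adjusted p = 0.0133), with a log2 fold change of 1.13 ± 0.19 in marker-filtered cells (adjusted p = 0.000152). The other 6 were not called, and the list's median was 0.13, while 2 of 9 were called in marker-filtered cells, with a median of 0.75.

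Of the 7 HIN-200 genes tested, whose products bind DNA in the nucleus and cytosol, 4 rose in naive-state members. Ifi203 stood at 6.20, 6.24, 5.79 and 5.37 UMIs per 10000 in naive-state members of the untreated, anti-PD-L1, anti-OX40 and PDOX libraries and at 3.21, 3.20, 3.04 and 3.31 in comparison cells. The 4 summed member values lay close together, as did the 4 comparison values, and their ranges did not overlap. The log2 fold change was 0.90 ± 0.12 (SE; edgeR adjusted p = 7.08e-07). Gm4955, listed as Ifi206 by RefSeq, had 0.99 ± 0.15 (adjusted p = 8.71e-06) and Pyhin1, listed as Ifi209, 0.74 ± 0.17 (adjusted p = 0.00849). These genes lie next to each other and resemble each other in sequence, so reads could have been assigned to the wrong copy.

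Schlafen genes regulate T cell quiescence and restrict viruses. Slfn8 stood at 1.66, 1.08, 0.852 and 0.717 UMIs per 10000 in naive-state members of the untreated, anti-PD-L1, anti-OX40 and PDOX libraries against 0.451, 0.396, 0.400 and 0.317 in comparison cells, without overlap. Its log2 fold change was 1.44 ± 0.27 (SE; edgeR adjusted p = 0.00067) and that of Slfn5, which rested on 36 UMIs in members, 2.04 ± 0.41 (adjusted p = 0.00176). The other 2 of the 4 genes tested were not called.

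Of the guanylate-binding proteins, the immunity-related GTPases and other genes known for induction by interferon gamma, 10 of 13 tested rose in naive-state members and 10 of 14 in marker-filtered members. Gbp7 stood at 1.51, 1.93, 1.87 and 1.25 UMIs per 10000 in naive-state members of the untreated, anti-PD-L1, anti-OX40 and PDOX libraries and at 0.602, 0.675, 0.476 and 0.813 in comparison cells. The ranges did not overlap, and the PDOX library had the smallest difference. The log2 fold change was 1.41 ± 0.23 (SE; edgeR adjusted p = 4.24e-05). Gbp2 stood at 0.453, 2.06, 2.38 and 1.07 in members and 0.351, 0.849, 0.542 and 0.991 in comparison cells (log2 fold change 1.19 ± 0.23, adjusted p = 0.00152). The untreated and PDOX pairs differed little, on few UMIs in members. Gbp6, with 33 UMIs in members, had a log2 fold change of 1.83 ± 0.42 (adjusted p = 0.00886), and Iigp1, a GTPase of pathogen vacuoles with 32 UMIs in members, 1.63 ± 0.39 (adjusted p = 0.0132).

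**Figure D3:**
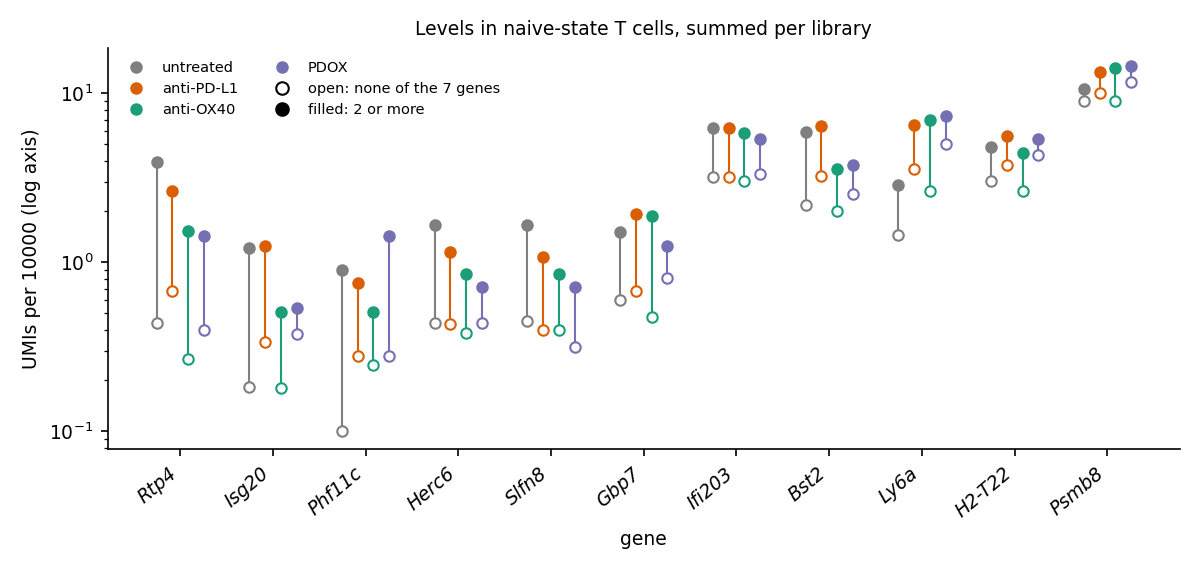
Level of 11 genes outside the 7 (x axis) in naive-state T cells, in UMIs per 10000 on a log axis, 1 pair of points per library. Open points are T cells with none of the 7 genes and filled points interferon-responding cells. The genes were chosen from those called and higher in every library, so the filled point lies above the open one in every pair by that choice. Examples are 3.93 over 0.435 for Rtp4 and 10.6 over 9.03 for Psmb8, both in the untreated library.

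Of the genes that carry the interferon signal, most did not pass the test. Irf9, the DNA-binding part of the complex that type I interferons activate, was called in marker-filtered cells (log2 fold change 0.79 ± 0.18 SE, edgeR adjusted p = 0.0133) but not in naive-state cells (0.82 ± 0.23, adjusted p = 0.0667), a difference between the cell sets that was not tested. Of 18 genes of receptors, kinases and transcription factors of the signal tested in naive-state cells, 17 were not called, with a median of 0.16. Over all members Ifngr2, a chain of the interferon gamma receptor, rose by 1.56 ± 0.20 (adjusted p = 3.28e-05), but in marker-filtered cells it had -0.23 ± 0.32 and was not called. Of 20 interferon genes, Ifng was the only one to pass the filter, and it was not called in marker-filtered cells, at 0.134, 0.137, 0.699 and 0.816 UMIs per 10000 in members and 0.0881, 0.098, 0.244 and 0.512 in comparison cells (log2 fold change 0.90 ± 0.34, adjusted p = 0.384).

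Genes of MHC class I presentation, which interferons raise in most cells, differed by less. H2-T22, a nonclassical class I molecule, stood at 4.84, 5.59, 4.43 and 5.37 UMIs per 10000 in naive-state members of the untreated, anti-PD-L1, anti-OX40 and PDOX libraries and at 3.01, 3.78, 2.66 and 4.30 in comparison cells. The log2 fold change was 0.55 ± 0.12 (SE; edgeR adjusted p = 0.00569), next to 0.67 ± 0.14 (adjusted p = 0.00495) for H2-T23, the mouse Qa-1 molecule that NKG2A binds. Reads of these related genes can be hard to tell apart. Psmb8, a subunit of the immunoproteasome, stood at 10.6, 13.3, 14.1 and 14.5 in members and 9.03, 10.1, 8.99 and 11.7 in comparison cells, higher in each library although the ranges overlapped (0.39 ± 0.08, adjusted p = 0.00237). B2m, the class I light chain, rose by 0.16 ± 0.04 (adjusted p = 0.0455) and was not called in marker-filtered cells (0.17 ± 0.06, adjusted p = 0.272). The other 18 of 22 genes were not called, and the median was 0.24.

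Ly6a, which encodes Sca-1 and marks activated and interferon-exposed T cells, stood at 2.87, 6.54, 6.98 and 7.35 UMIs per 10000 in naive-state members of the untreated, anti-PD-L1, anti-OX40 and PDOX libraries and at 1.45, 3.56, 2.66 and 5.02 in comparison cells. The ranges overlapped, since PDOX comparison cells were above untreated members, but members were higher in each library (log2 fold change 0.90 ± 0.12 SE, edgeR adjusted p = 1.66e-06). In marker-filtered cells the log2 fold change was 1.05 ± 0.10 (adjusted p = 5.56e-09). Over all members it was 3.01 ± 0.16 (adjusted p = 3.63e-10).

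Outside the lists, the genes that rose in naive-state members included Lgals3bp, a secreted scavenger receptor family protein, with a log2 fold change of 1.32 ± 0.28 (SE; edgeR adjusted p = 0.00495). Tor1aip1, a nuclear membrane protein, had 0.97 ± 0.23 (adjusted p = 0.0123), Max, the partner of MYC, 0.76 ± 0.18 (adjusted p = 0.0123) and Rnf114, a ubiquitin ligase, 0.67 ± 0.17 (adjusted p = 0.0271). The 3 genes that fell were Ash1l, a histone methyltransferase gene, by 0.99 ± 0.25 on the log2 scale (adjusted p = 0.0283), Gm12840 by 0.31 ± 0.08 (adjusted p = 0.0291) and the nuclear RNA Malat1 by 0.15 ± 0.03 (adjusted p = 0.00569). None of the 3 was called in marker-filtered cells. Malat1 was higher over all members (0.49 ± 0.06, adjusted p = 2.75e-05), so its direction depended on the set of cells.

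In marker-filtered cells, members had less Il7r, the receptor that keeps resting T cells alive. It stood at 4.96, 3.56, 4.12 and 2.74 UMIs per 10000 in members of the untreated, anti-PD-L1, anti-OX40 and PDOX libraries and at 5.71, 5.24, 5.59 and 4.91 in comparison cells. It was lower in each library, by 0.52 ± 0.11 on the log2 scale (SE; edgeR adjusted p = 0.00288). Satb1, a chromatin organizer of naive T cells, fell by 0.47 ± 0.11 (adjusted p = 0.00971) and was 1 of 8 naive genes tested to be called. Of 17 effector genes, 5 rose, among them Nkg7, a cytotoxic granule protein, with 0.40 ± 0.08 (adjusted p = 0.00161), the one of the 5 that was higher in all 4 libraries, although over all members its log2 fold change was 0.0088 ± 0.11 (adjusted p = 0.992). Ifitm2 fell in marker-filtered members by 1.76 ± 0.31 (adjusted p = 0.00039), whereas over all members it was not called and had a value of 1.40 ± 0.44 (adjusted p = 0.0665). None of the genes tested for homing (9), immediate early response (15), inhibitory receptors (5), regulatory T cells (5) or cycling (3) was called in marker-filtered cells. Only 1.34% of all genes tested there were called, so the lack of calls in these short lists is no result about them. In simulated data for all members, the fit recovered 52 of 200 genes changed by 1 on the log2 scale.

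**Figure D4:**
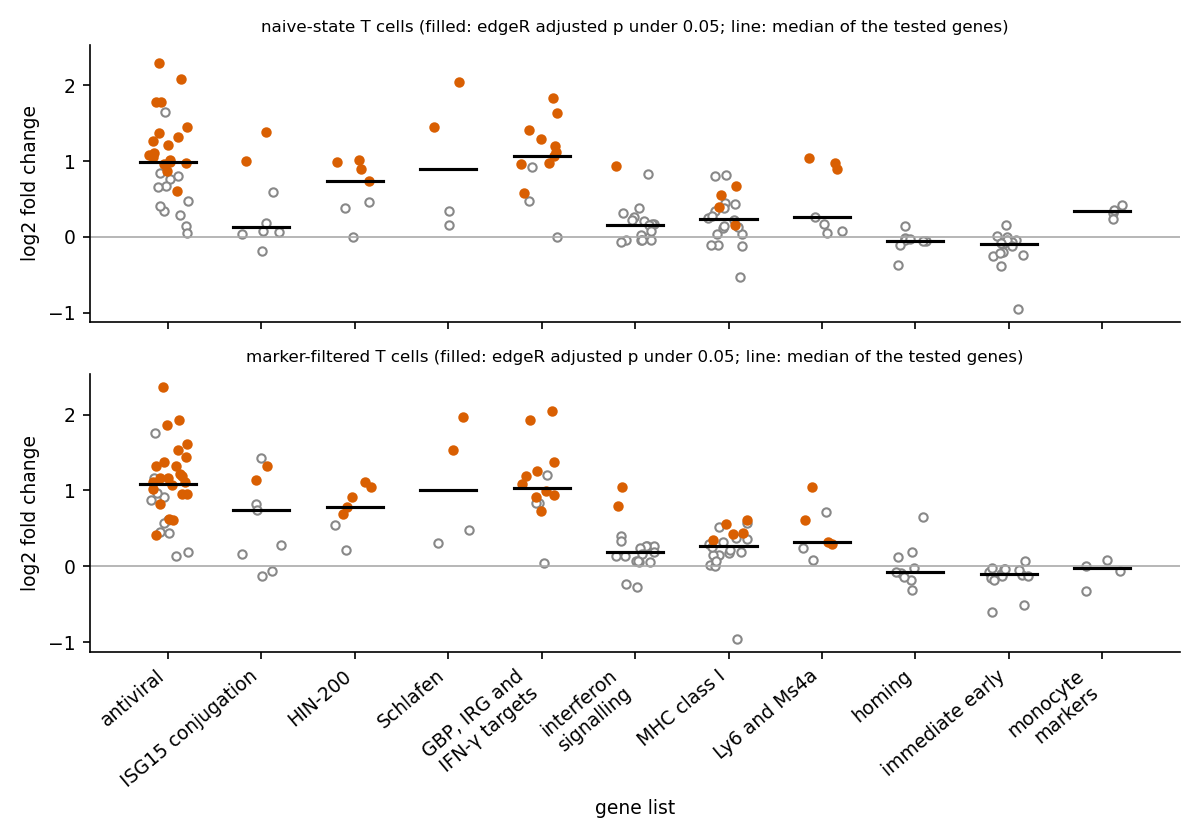
Log2 fold change of members over comparison cells (y axis) for each tested gene of 11 gene lists (x axis), in naive-state T cells (top) and marker-filtered T cells (bottom). Filled points had an edgeR adjusted p under 0.05 and lines are medians; the antiviral, HIN-200, Schlafen and GTPase medians lie between 0.74 and 1.09, and those of the homing and immediate early lists between -0.10 and -0.049.

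To show what these genes share in sequence, the promoters of RefSeq (GRCm38.p6, the build called mm10; 250 bases before to 50 after the start site) were searched for the interferon-stimulated response element, taken as GAAANNGAAA on either strand. It was found in 4 of the 6 selecting genes with a promoter in the table (Ifit1, Ifit3, Isg15 and Rsad2; Usp18 had none in the table). Of the 51 genes higher in naive-state members, 39 had a promoter and 18 of these held the element (46.2%), against 167 of 4053 over all genes tested (4.12%). The share was 15 of 27 for those in the interferon-stimulated lists and 3 of 12 for the others. A match is a description of the letters and not a measured binding site. The windows below are those of 2 selecting genes and of 4 genes that rose in naive-state members, on the strand of the gene from 5′ to 3′, with the element in capitals.
Isg15, chr4:156200855-156200916, minus strand, 78 to 57 bases before the start site, 3 overlapping matches: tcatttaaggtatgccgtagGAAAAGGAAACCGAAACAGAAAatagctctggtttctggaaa
Ifit1, chr19:34640765-34640833, plus strand, 104 to 76 bases before, 2 matches on the reverse strand: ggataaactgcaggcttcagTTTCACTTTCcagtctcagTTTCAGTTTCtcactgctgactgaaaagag
Gbp7, chr3:142530263-142530312, plus strand, 53 to 44 bases before: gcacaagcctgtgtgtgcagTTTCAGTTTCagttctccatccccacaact
Gbp2, chr3:142620584-142620633, plus strand, 59 to 50 bases before: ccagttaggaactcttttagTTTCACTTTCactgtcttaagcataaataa
Slfn8, chr11:83020829-83020878, minus strand, 48 to 39 bases before: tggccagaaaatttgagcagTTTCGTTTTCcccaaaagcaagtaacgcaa
Ifi203, chr1:173942498-173942547, minus strand, 35 to 26 bases before: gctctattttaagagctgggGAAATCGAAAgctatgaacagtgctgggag

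Members and comparison cells were split into naive and effector states by which of 2 gene lists (8 naive genes such as Ccr7 and Tcf7, and 17 effector genes such as Ccl5, Nkg7 and the granzymes) had more UMIs in the cell. Of the members, 32.2%, 30.8%, 49.2% and 63.9% were of effector state in the untreated, anti-PD-L1, anti-OX40 and PDOX libraries, against 15.8%, 17.4%, 36.9% and 60.3% of the comparison cells. Members of effector state were thus the larger part only in PDOX, where most comparison cells were of effector state too. In marker-filtered cells the effector shares were 16.3%, 19.3%, 46.4% and 57.0% of members against 13.4%, 14.9%, 35.0% and 59.3% of comparison cells, so that the PDOX members were then below their comparison cells.

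Seen from the state, 15.7%, 27.1%, 5.56% and 7.65% of effector-state T cells and 6.57%, 15.9%, 3.54% and 6.60% of naive-state T cells were members in the untreated, anti-PD-L1, anti-OX40 and PDOX libraries. The effector share was higher in 4 of 4 libraries, by 5.85 ± 5.07 percentage points (SD, n = 4; exact sign-flip permutation test over libraries, two-sided p = 0.13, the smallest that 4 libraries allow). The difference was 9.13 and 11.2 points in the untreated and anti-PD-L1 libraries and 2.02 and 1.05 points in the anti-OX40 and PDOX libraries. Effector-state members were the deepest cells, with median UMIs of 4209, 3754.5, 2385 and 2384, and 11 of 19, 35 of 74, 5 of 31 and 17 of 62 of them had at least 4 monocyte UMIs. Among marker-filtered cells the effector shares were 8.14%, 18.4%, 5.19% and 6.16% and the naive shares 6.17%, 15.0%, 3.50% and 6.82%. The mean difference there was 1.61 points, higher in 3 of 4 libraries (exact p = 0.25). After thinning to 750 UMIs it was 1.01 points with 4 of 4 libraries higher. Among T cells with 1000 to 2500 UMIs it was 0.896 points with 2 of 4 higher, and without the deepest 5% 1.42 points with 3 of 4. With no other-cell UMI it was 3.76 points, and with at least 2 Cd3 UMIs 3.70 points. With at least 3 of the 7 genes it was 3.46 points, and without Irf7 in the gate 5.07 points. The effector share was higher in 4 of 4 libraries in each of these last gates and filters.

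**Figure D5:**
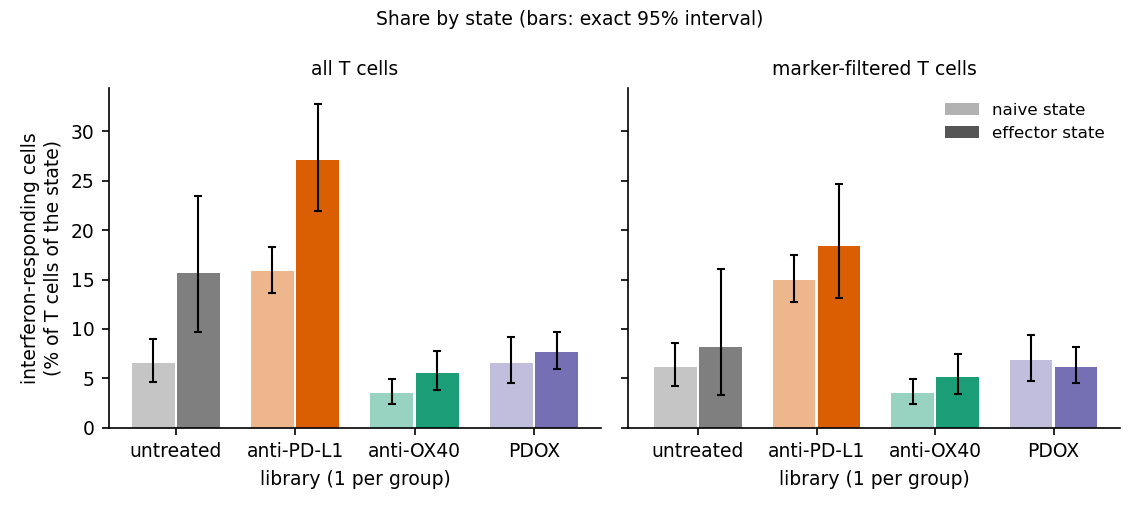
Share of naive-state and effector-state T cells that were interferon-responding (y axis, percent) by library (x axis), for all T cells (left) and marker-filtered T cells (right), with exact 95% intervals for counting error. The effector bar exceeds the naive bar in all 4 libraries on the left and in 3 of 4 on the right.

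Both lineages held members. Among cells with a Cd8a or Cd8b1 UMI and no Cd4 UMI, 8.64%, 19.0%, 3.86% and 7.46% were members in the untreated, anti-PD-L1, anti-OX40 and PDOX libraries. Among cells with a Cd4 UMI and no Cd8 UMI the shares were 3.92%, 16.8%, 4.92% and 6.64%. The intervals of the lineages overlapped within each library. In the untreated library 0 of 91 naive-state Cd4 cells were members, which allows a share of up to 3.30%, next to 19 of 238 naive-state Cd8 cells. After thinning to 750 UMIs the counts were 1 of 52 and 4 of 166, with overlapping intervals. In the anti-PD-L1 library 27 of 168 naive-state Cd4 cells and 84 of 461 naive-state Cd8 cells were members, or 16.1% and 18.2%. In naive-state cells Cd8a stood at 5.89, 5.62, 3.75 and 3.76 UMIs per 10000 in members and 3.71, 3.93, 3.71 and 2.14 in comparison cells (log2 fold change 0.49 ± 0.12 SE, edgeR adjusted p = 0.0291), while Cd4 was not called (-0.44 ± 0.20, adjusted p = 0.728). In marker-filtered cells Cd8a had 0.60 ± 0.10 (adjusted p = 0.000152; 4 of 4 libraries higher), whereas over all members it was not called (0.30 ± 0.11, adjusted p = 0.12), with 2 libraries higher and 2 lower.

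Whether the difference between members and comparison cells depended on state was tested as an interaction. Of 5108 genes, 163 were called (3.19%; edgeR adjusted p under 0.05), 153 of them with a larger difference in effector-state cells. The 5 with the smallest p were Gsto1, Fth1, Asprv1, Prss27 and Psca, among them genes of squamous epithelium, and the 16 members with epithelial genes were all of effector state. Of the 69 interferon-stimulated genes tested, 2 were called: Ifit1bl1 (interaction 2.90 ± 0.37 SE on the log2 scale, adjusted p = 3.00e-06) and Irf1 (1.43 ± 0.32, adjusted p = 0.00541). Ly6a differed by 3.24 in effector-state and 0.91 in naive-state cells (interaction 2.33 ± 0.26, adjusted p = 2.07e-07), but in marker-filtered cells by 0.88 and 0.95 (-0.07 ± 0.17, adjusted p = 0.993). In marker-filtered cells, where the untreated library had too few effector-state members to enter, 0 of 4081 genes were called by edgeR and 190 had an unadjusted p under 0.05. There Rtp4 differed by 2.67 in effector-state and 1.98 in naive-state cells on the log2 scale (interaction 0.69 ± 0.36, adjusted p = 0.989). In data simulated without the marker filter, the state interaction test recovered 2 of 200 genes changed by 1 on the log2 scale. Genes not called may therefore still differ between the states.

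The same test between lineages called 2 of 4507 genes (0.0444%), without the untreated library, which had 4 Cd4 members. Ly6a differed by 2.86 on the log2 scale in Cd8 cells and 1.08 in Cd4 cells (interaction of Cd4 against Cd8 -1.78 ± 0.29 SE, edgeR adjusted p = 0.00362). Ifitm3, a membrane protein that blocks virus entry, differed by 2.35 and -1.60 (interaction -3.95 ± 0.66, adjusted p = 0.00362). In marker-filtered cells Ly6a was not called (-0.83 ± 0.26, adjusted p = 0.321), Ifitm3 did not pass the filter, and 10 of 3740 genes were called, none among the 53 interferon-stimulated genes tested.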

How the data were processed

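Raw UMI counts per gene and cell were deposited by the authors for 4 libraries of CD3+ T cells from blood, made with Cell Ranger per the study's methods. Seurat 2 and mm10 appear in the submitters' processing notes. Each library is 1 mouse, so spread between libraries includes mouse and treatment. The files held 27998 genes. Of these, 130 (mitochondrial, ribosomal protein and hemoglobin genes) were left out of gene counts and fits.

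Members and gene lists were chosen with earlier results of these data known. UMIs were summed per library for members and for comparison cells, with at least 10 cells per sum, and tested with edgeR 4.0.16 (R 4.3.3) by the quasi-likelihood test after filterByExpr and TMM scaling, with library as a block. Sums of 1 library come from the same mouse, which is where the pairing comes from. The adjusted p threshold was 0.05. The 7 selecting genes and 3 Cd3 genes were left out of the fits. Levels are UMIs per 10000. DESeq2 1.42.0, other gates, thinning and marker filters were alternatives. Fits were tested on simulated data. Of 343 listed genes, 335 were found in the files, 7 of these by a RefSeq synonym.

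Genes named were up to 4 per list with the largest called change in 1 direction in every library, 8 increases and 8 decreases outside the lists, and 5 per interaction. Not every gene so chosen is printed. Results for a few genes are not reported here.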

Additional observations from a re-analysis of the deposited data

Results flagged for a closer look

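A signal appeared in cells outside the T cells. Of kept cells without a Cd3 UMI, 25.2% (29 of 115; exact 95% interval 17.6% to 34.2%) of the anti-PD-L1 library had at least 2 of the 7 genes, against 10.5% (9 of 86) in the untreated, 2.70% (2 of 74) in the anti-OX40 and 12.0% (20 of 166) in the PDOX library. Among those with monocyte markers the counts were 22 of 35 in anti-PD-L1, 6 of 10 in untreated, 1 of 11 in anti-OX40 and 8 of 40 in PDOX. Their median UMIs were 3476, 3027.5, 1899 and 1634.5 in the same order, so depth differed too, and its part was not tested.

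The difference between members and comparison cells was called as dependent on state for 163 genes by edgeR's interaction test, and for 0 genes in marker-filtered cells. It depended on lineage for 2 genes, Ly6a and Ifitm3, and for 10 genes in marker-filtered cells.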

How the results depend on the processing

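With 1 library per group, differences between treatments had no replicate check, and the number of the 7 genes detected in a cell depends on its depth. The 572 genes called over all members became 376 with DESeq2, 80 in marker-filtered cells, 1055 with no filter on low counts, 2 in cells with no UMI of other-cell markers (untreated library not fitted), 98 without the 5% of T cells with the most UMIs, 35 after thinning to 750 UMIs, 81 in cells of 1000 to 2500 UMIs, and 313 to 660 without 1 library, lowest without anti-PD-L1. The 54 genes in naive-state cells became 15 with DESeq2, 8 after thinning (untreated and anti-PD-L1 libraries only, since the others kept 8 members each) and 5 to 56 without 1 library, lowest without anti-PD-L1, and could not be fitted with replication in cells with no other-cell UMI. Without the replicate block (no library term), 383 genes were called over all members and 29 in naive-state cells. The 163 genes of the state interaction became 108 with DESeq2, 0 in marker-filtered cells and 52 to 189 without 1 library, lowest without anti-PD-L1. The 2 genes of the lineage interaction became 0 with DESeq2, 10 in marker-filtered cells, 14 with no filter on low counts and 4 to 10 without 1 library. The causes were not tested.

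Shares of members in the untreated, anti-PD-L1, anti-OX40 and PDOX libraries were 3.50%, 7.97%, 1.11% and 2.47% after thinning, 2.73%, 8.88%, 0.945% and 2.54% with at least 3 genes, and 5.31%, 12.6%, 2.30% and 4.10% without Irf7 in the gate. In cells with no other-cell UMI they were 8.57%, 12.4%, 2.65% and 5.46%. The anti-PD-L1 share was 15.9% without the deepest 5% of cells and 15.6% in marker-filtered cells. The effector share of members was 22.6% for anti-PD-L1 after thinning and 73.5% for PDOX with at least 3 genes. In cells of 1000 to 2500 UMIs it was 20%, 12.5% and 51.7% for untreated, anti-PD-L1 and PDOX. For untreated and anti-PD-L1 it was 11.1% and 24.1% with no other-cell UMI, 19.1% and 19.1% without the deepest 5%, and 16.3% and 19.3% in marker-filtered cells.

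Log2 fold changes that turned over were, in marker-filtered cells, Ifngr2 -0.23, Dusp1 -0.097, Zfp36 -0.021, Cst3 -0.056, Lyz2 -0.32 and Ifitm2 -1.76. With at least 3 genes Nkg7 had -0.70. With no other-cell UMI Lef1 had 0.0090, Capg -0.36 and Dusp1 -0.0048. Without the deepest 5%, S100a4 had -0.10, Capg -0.24, Dusp1 -0.066 and Zfp36 -0.050. After thinning, Ifngr2 had -0.21, S100a4 -0.58, Capg -0.18, Dusp1 -1.38, Zfp36 -0.080, Fcer1g -0.032 and Lyz2 -0.24, and in naive-state cells, from the untreated and anti-PD-L1 libraries alone, B2m -0.12, Cd8a -0.017 and Cd8b1 -0.11. In cells of 1000 to 2500 UMIs, Ifngr2 had -0.021, S100a6 -0.38, S100a4 -0.58, Capg -0.67, Dusp1 -0.054 and Cd74 -0.85. Rtp4 kept its call in all 19 settings over all members, at 2.28 to 3.20.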
